A study of Eriocheir sinensis with 2 samples.

Results

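The unigenes described here are those whose deposited best hit in the nr protein database names a component of crustacean hemolymph clotting, of the prophenoloxidase (proPO) cascade, or a protease inhibitor. They were selected by words in the annotation and not by their reads. The words were clotting, transglutaminase, prophenoloxidase, phenoloxidase, peroxinectin, serine proteinase homolog, masquerade, serpin, serine protease or proteinase inhibitor, macroglobulin, pacifastin, Kazal, clip domain and hemocyte. The selection gave 42 unigenes among the 47966 with at least 1 read, of which 13314 carry an annotation. Y-organs are the paired glands of crabs that secrete ecdysteroids. Sample C1 came from Chinese mitten crabs (*Eriocheir sinensis*, 5 to 6 g, held in fresh water at 18 to 20°C) 48 h after removal of the eyestalk, whose neuroendocrine tissue restrains the Y-organ. Sample C0 came from untreated crabs of the same stock, for which the paper gives no sampling time. Each group had 30 crabs and gave 1 library, so no difference between C1 and C0 has a replicate check. How many glands went into each library is not given in the sources used here. The sources name no sham operation for C0, so C1 differs from C0 by the wound as well as by the loss of the eyestalk. Of the unigene reads of both libraries, 47.5% came from C1, so the depths were close.

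Hemolymph clotting in crayfish rests on a plasma clotting protein, a lipid-binding relative of vitellogenin, which is cross-linked by a transglutaminase released from hemocytes. In the proPO system, recognition of microbial sugars or of a wound sets off clip domain serine proteinases, which cut the zymogen prophenoloxidase into the enzyme that starts melanin synthesis. Serine proteinase homologs such as masquerade-like proteins lack catalytic activity and act as cofactors or in recognition, while peroxinectin is a peroxidase that binds hemocytes to surfaces. Serpins, Kazal-type inhibitors, pacifastin and α2-macroglobulin are the inhibitors that keep such proteases in check.

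Among the 31 members with at least 10 reads the largest ratio was that of the clotting protein, which was 5.54-fold higher in C1 than in C0. Apart from it, the cascade members were mostly lower in C1. Of the 15 unigenes for transglutaminases, proPO activation, serine proteinase homologs and peroxinectin that had at least 10 reads, 13 were lower and 2 higher in C1, with a median log2 ratio of -0.60. The 15 unigenes of the inhibitor group with at least 10 reads were divided, 8 higher and 7 lower in C1, with a median of 0.26. Without the α2-macroglobulin receptor, which is in the group by its name, 8 were higher and 6 lower, with a median of 0.30. The summed reads of all 24 unigenes of the inhibitor group were 3356 in C1 and 3871 in C0, a log2 ratio of -0.06. Without the receptor the sums were 3002 in C1 and 3250 in C0, a log2 ratio of 0.03. For comparison, the median over all 30436 unigenes with at least 10 reads was 0.15, and 41.3% of them were lower in C1. Scaling the libraries with the TMM factors of edgeR moved every log2 ratio by -0.17. It put the median of all unigenes at -0.02 with 50.9% of them lower, and the median of the cascade members at -0.77 with 14 of the 15 lower. The median of the 15 unigenes of the inhibitor group was 0.09 with this scaling. These counts describe the lists and are no test of them.

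A unigene was called a differentially expressed unigene (DEU) when the exact two-sided binomial test between the 2 libraries gave a Benjamini-Hochberg adjusted p of at most 0.001 and its log2 ratio (C1/C0) was beyond 1. The test compares these 2 libraries and not the 2 conditions. Of the 42 members, 6 were DEUs (14.3%), against 4.03% of all unigenes tested. The DEUs higher in C1 numbered 2 of 42 members (4.76%), against 2.32% of all unigenes, and the DEUs lower in C1 numbered 4 (9.52%), against 1.7%. Members had more reads than the average unigene, and more reads make a call easier. Among unigenes with at least 10 reads, 6 of 31 members were called, against 6.34% of all, with 2 members higher in C1 (3.66% of all) and 4 lower (2.68%). At 100 reads or more, 6 of 20 members were called, against 20.4% of all. Of these 20, 2 were called higher in C1, against 11.6% of all, and 4 lower, against 8.85%. The adjusted p alone was passed by 10 of the 42 members, against 5.91% of all unigenes, 3 higher in C1 (3.46% of all) and 7 lower (2.45%). With TMM factors the DEUs of the whole table numbered 730 higher and 1053 lower in C1 (40.9% higher), in place of 1115 higher and 816 lower (57.7% higher), while the same 6 members were called in the same directions. The 95% intervals (Wilson) below cover counting error only, and neither PCR copies nor differences between crabs. Because the tissue was measured in bulk, fewer cells of a type and less RNA per cell cannot be told apart.

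**Figure D1:**
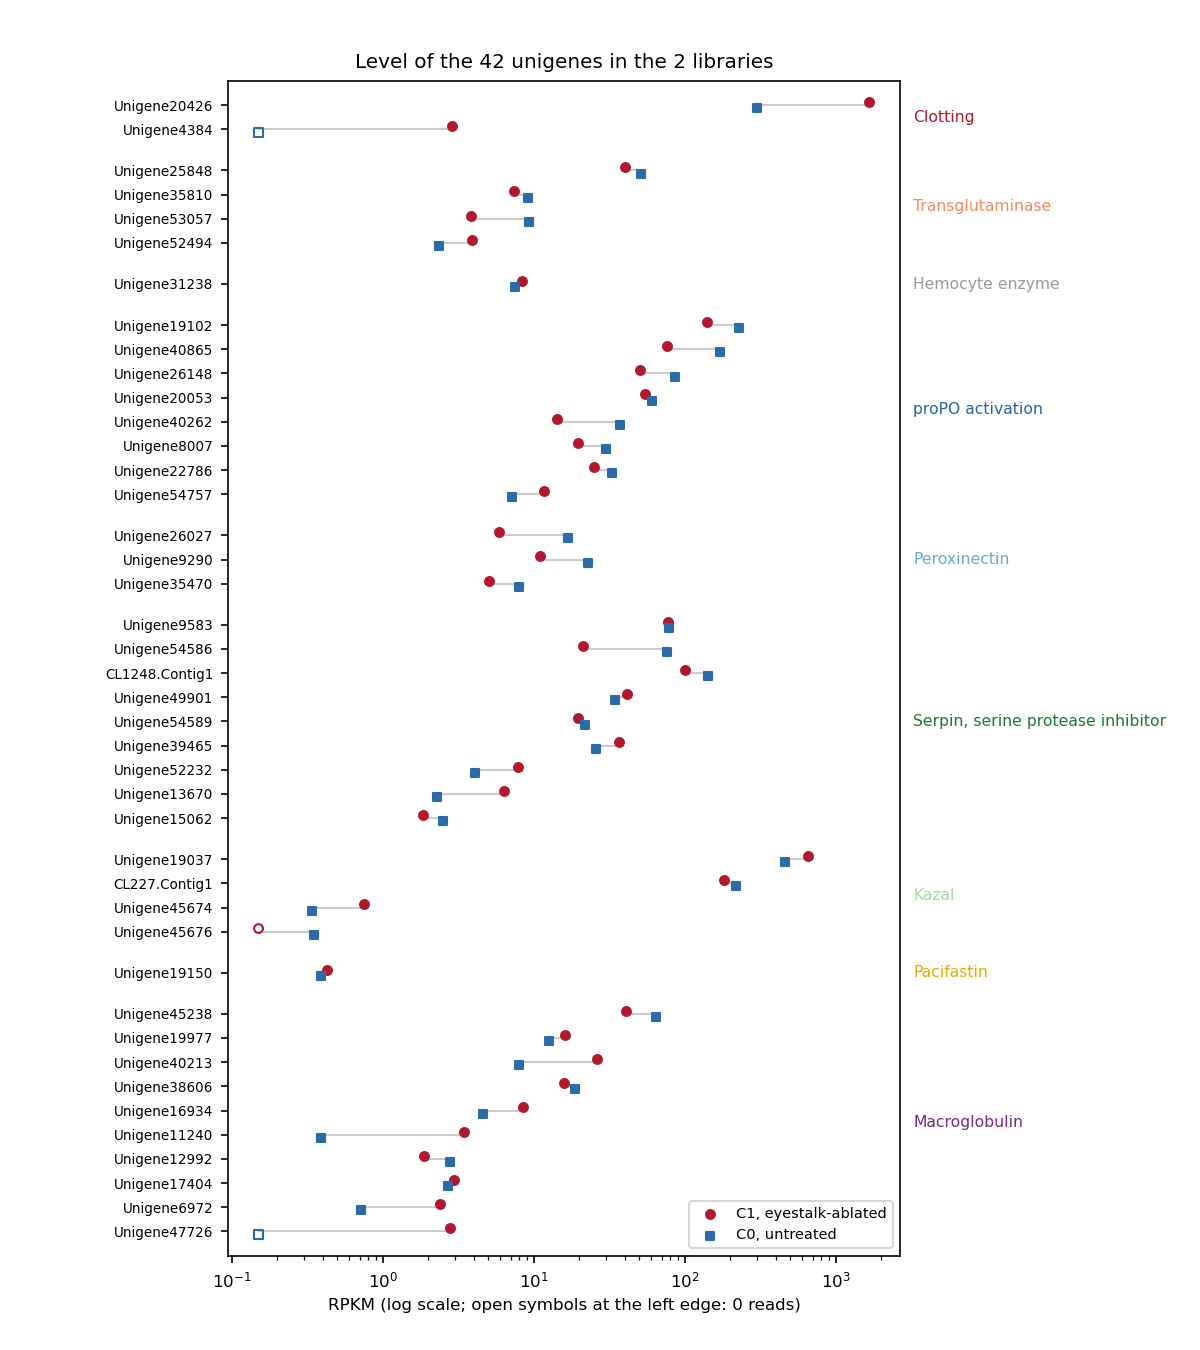
RPKM of each of the 42 unigenes in C1 (circles) and C0 (squares) on a log axis, by role, with 1 library per group (open symbols, 0 reads). The clotting protein Unigene20426 stands at 1668 in C1 and 301 in C0, and 7 of the 8 unigenes of proPO activation lie lower in C1.

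The clotting protein is Unigene20426_A0A, 5399 bp long, the longest of the 42, with a clotting protein precursor of the crayfish *Pacifastacus leniusculus* as its best hit. It had 33779 reads in C1 and 6745 in C0, and reads covered 99.7% of its length in both libraries. Its RPKM, which scales reads by unigene length and library total, was 1668 in C1 and 301 in C0. In C1 it took 0.901% of all unigene reads (95% interval 0.891 to 0.910%), and in C0 it took 0.162% (0.159 to 0.166%). The log2 ratio was 2.47 with an interval of 2.43 to 2.51, and 2.30 with TMM factors. By number of reads it ranked 11 among all unigenes in C1 and 61 in C0. Among the 1115 DEUs that were higher in C1, only 1 other unigene added a larger share of the reads. This single unigene held 86.1% of the reads of the 42 members in C1 and 47.0% in C0. Scaled to 1000000 reads per library (RPM), the summed reads of the members were 10463 in C1 and 3459 in C0, but without it they were 1457 RPM in C1 and 1835 RPM in C0.

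The second unigene of this group, Unigene4384_A0A, has clotting factor G α subunit of the horseshoe crab *Tachypleus tridentatus* as best hit, a protein that binds β-glucan, with an E-value of 1.83e-07. It had 5 reads in C1 and 0 in C0. The interval of its log2 ratio has a lower end of 0.53 and no upper end, and its adjusted p in the exact binomial test was 0.147.

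Transglutaminases, which form the cross-links of the clot, had lower or similar values in C1. The main one is Unigene25848_A0A (2322 bp, best hit a transglutaminase of *P. leniusculus*). It had 349 reads and an RPKM of 40.1 in C1, against 495 reads and 51.3 in C0. The log2 ratio of -0.36 (95% interval -0.55 to -0.16) did not pass the test (adjusted p = 0.00513, exact binomial test). The others had few reads, with an insect protein or an entry of unstated species as best hit. Unigene35810_A0A had 11 reads in C1 and 15 in C0, and Unigene53057_A0A (annotated as annulin, a transglutaminase first known from grasshopper embryos) had 6 in C1 and 16 in C0. For Unigene52494_A0A the reads were 3 in C1 and 2 in C0. A hemocyte protein-glutamine γ-glutamyltransferase, which is the systematic name of a transglutaminase, was the annotation of Unigene31238_A0A, with 9 reads in each library. The 5 unigenes together had 378 reads in C1 and 537 in C0, a log2 ratio of -0.36 (interval -0.55 to -0.17).

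The 8 unigenes of proPO activation and serine proteinase homologs had 443 RPM together in C1 and 730 RPM in C0, a log2 ratio of -0.72 (95% interval -0.81 to -0.63). All 8 had at least 10 reads, 7 were lower in C1, and 2 of these were DEUs. The most abundant was Unigene19102_A0A, annotated as the prophenoloxidase-activating factor of *E. sinensis* itself. It had 669 reads and an RPKM of 139 in C1, against 1216 reads and 228 in C0. Its log2 ratio was -0.71 (interval -0.85 to -0.58), which passed the adjusted p (8.35e-24, exact binomial test) but not the ratio threshold. Unigene40262_A0A, whose best hit is prophenoloxidase-activating enzyme 2 of *Penaeus monodon*, fell to 62 reads (RPKM 14.3) in C1, against 179 reads (37.4) in C0. This DEU was 2.59-fold lower in C1, and the interval of its log2 ratio of -1.38 ran from -1.80 to -0.97 (exact binomial test, adjusted p = 2.47e-10). The third activating enzyme, Unigene54757_A0A (best hit prophenoloxidase activating enzyme III of *Callinectes sapidus*), was the only one of the 8 on the other side. It had 29 reads in C1 and 20 in C0, and its interval of -0.13 to 1.49 spans 0.

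Unigene40865_A0A, annotated as a serine proteinase homologue of *Marsupenaeus japonicus*, was the second DEU of this group. It had 247 reads and an RPKM of 76.1 in C1, against 610 reads and 170 in C0. The log2 ratio was -1.16 with an interval of -1.37 to -0.94, so the interval reaches over the threshold (adjusted p = 1.13e-26, exact binomial test). Unigene26148_A0A has clip domain serine proteinase 1 of *P. monodon* as best hit, and its role in the cascade was not tested. It had 256 reads (RPKM 50.5) in C1 and 480 reads (85.5) in C0. It passed the adjusted p (1.70e-10, exact binomial test) with a log2 ratio of -0.76. In this group 2 unigenes were thus DEUs, 2 passed the adjusted p alone, and 4 passed neither threshold of the call.

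The 3 masquerade-like unigenes of this group had 399 reads in C1 and 526 in C0, a log2 ratio of -0.25 (interval -0.44 to -0.06). Unigene20053_A0A and Unigene8007_A0A share the masquerade-like protein of *P. leniusculus* as best hit, so they may be pieces of 1 transcript or 2 genes. The first had 310 reads in C1 and 382 in C0, a log2 ratio of -0.15 (interval -0.37 to 0.06). For the second the reads were 64 in C1 and 108 in C0, a log2 ratio of -0.60 (-1.05 to -0.16). A shorter one of 265 bp, Unigene22786_A0A, had 25 reads in C1 and 36 in C0. None of the 3 was a DEU.

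Prophenoloxidase, the substrate of the proPO-activating enzymes, is absent from the members, and phenoloxidase as a role group has 0 of the 42. One unigene does carry this annotation, but the deposited text spells it prophenoloxdiase, so the words of the selection passed it by. It was looked up after the values were known. Unigene49439_A0A (2098 bp, best hit from *E. sinensis*) had 343 reads and an RPKM of 43.6 in C1, against 510 reads and 58.5 in C0. The log2 ratio was -0.42 (interval -0.62 to -0.23), and it passed the adjusted p (4.45e-04, exact binomial test) without reaching the ratio threshold.

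Peroxinectin was lower in C1 in each of its 3 unigenes, with 65 reads together in C1 and 180 in C0 (log2 ratio -1.32, interval -1.73 to -0.91). Unigene26027_A0A (1725 bp) was a DEU. It fell to 38 reads and an RPKM of 5.87 in C1, against 120 reads and 16.8 in C0, which is 2.83-fold lower. Its log2 ratio was -1.50 (interval -2.04 to -0.99, adjusted p = 6.36e-08, exact binomial test). Reads covered 59.3% of this unigene in C1 and 90.7% in C0. Unigene9290_A0A has the same crayfish peroxinectin as best hit and may be part of the same transcript. With 23 reads in C1 and 53 in C0 its log2 ratio was -1.04, just past the ratio threshold, but its adjusted p of 0.0271 (exact binomial test) was not. Unigene35470_A0A, with a tick peroxinectin as best hit, had 4 reads in C1 and 7 in C0, too few for a call.

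**Figure D2:**
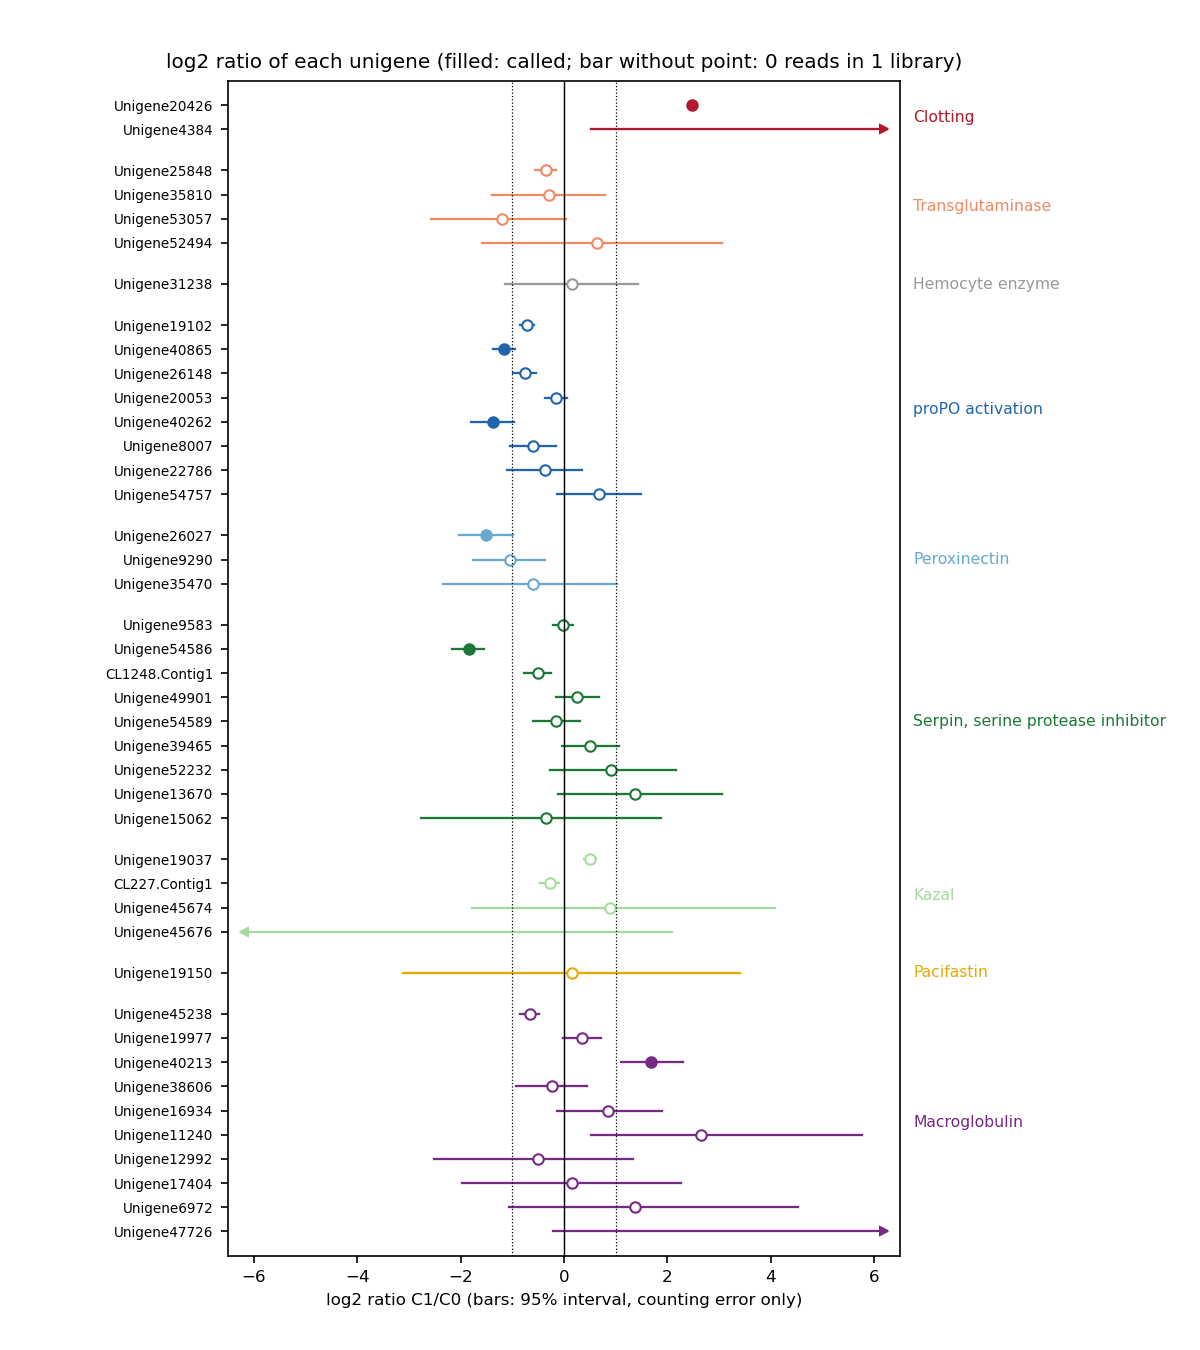
log2 ratio (C1/C0) of each of the 42 unigenes with its 95% interval from counting error, by role, and with dotted lines at 1 and -1. The 6 filled points are the DEUs, and bars without a point belong to the 3 unigenes with 0 reads in 1 library.

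Serpins and other serine protease inhibitors comprised 9 unigenes, of which 8 had at least 10 reads, 4 of them higher and 4 lower in C1. One of them was a DEU. Unigene54586_A0A (1327 bp, best hit serine proteinase inhibitor 6 of *P. monodon*) fell to 105 reads and an RPKM of 21.1 in C1, against 419 reads and 76.0 in C0. It was 3.59-fold lower, the largest decrease among the 31 members with at least 10 reads, at a log2 ratio of -1.84 with an interval of -2.16 to -1.54 (exact binomial test, adjusted p = 9.68e-37). Its interval was the only one of the 42 that lay wholly under -1. The same shrimp protein is the best hit of Unigene9583_A0A (1525 bp), which had 444 reads (RPKM 77.6) in C1 and 498 reads (78.6) in C0. Its log2 ratio was -0.02, and the interval of -0.20 to 0.17 does not overlap that of Unigene54586_A0A. Another and shorter unigene with this best hit, Unigene52232_A0A, had 14 reads in C1 and 8 in C0.

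The other inhibitors of this group had smaller ratios. CL1248.Contig1_A0A, with a serine proteinase inhibitor of the crayfish *Procambarus clarkii* as best hit, was the most abundant per length, with an RPKM of 99.5 in C1 and 141 in C0. Its 194 reads in C1 and 305 in C0 gave a log2 ratio of -0.50 (interval -0.77 to -0.25) and did not pass the test (adjusted p = 0.00207, exact binomial test). Unigene49901_A0A and Unigene39465_A0A share a serine protease inhibitor of the mud crab *Scylla paramamosain* as best hit. The first had 96 reads in C1 and 89 in C0, and the second had 59 in C1 and 46 in C0. Both intervals span 0, at -0.16 to 0.67 and -0.05 to 1.06. Unigene54589_A0A, annotated as serpin with no species, had 70 reads in C1 and 86 in C0. The remaining 2, Unigene13670_A0A and Unigene15062_A0A, had at most 10 reads in either library.

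Kazal-type inhibitors, small proteins that block serine proteases through a loop held by disulfide bonds, included the member with the highest RPKM in C0. Unigene19037_A0A (521 bp) had an RPKM of 654 in C1 and 461 in C0, from 1279 reads in C1 and 997 in C0. The log2 ratio of 0.51 (interval 0.39 to 0.63) was past the adjusted p (4.72e-15, exact binomial test) but far from the ratio threshold, and it was 0.34 with TMM factors. CL227.Contig1_A0A (645 bp) had an RPKM of 181 in C1 and 220 in C0, with 438 reads in C1 and 588 in C0. Its log2 ratio was -0.28 (interval -0.46 to -0.10, adjusted p = 0.0247, exact binomial test). The intervals of these 2 Kazal unigenes do not overlap. The other 2, Unigene45674_A0A and Unigene45676_A0A, share a best hit from *S. paramamosain*. Unigene45674_A0A had 2 reads in C1 and 1 in C0, and Unigene45676_A0A had 0 in C1 and 1 in C0. Pacifastin, which in crayfish inhibits the proPO-activating enzyme, was represented by Unigene19150_A0A, with 1 read in each library.

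The macroglobulins were 10 unigenes, most of them short and thinly covered. α2-macroglobulin is a large plasma protein that traps proteases and is also stored in hemocytes. One unigene, Unigene40213_A0A (902 bp, best hit from *Macrobrachium rosenbergii*), was a DEU and rose to 88 reads and an RPKM of 26.01 in C1, against 30 reads and 8.01 in C0. This is 3.21-fold higher, a log2 ratio of 1.68 whose interval ran from 1.11 to 2.29 (exact binomial test, adjusted p = 8.85e-08). The longest α2-macroglobulin unigene apart from the receptor, Unigene19977_A0A (2176 bp), had 131 reads in C1 and 114 in C0, a log2 ratio of 0.35 (interval -0.01 to 0.71). Unigene16934_A0A had 20 reads in C1 and 12 in C0, and Unigene38606_A0A had 29 in C1 and 38 in C0. The other 5 fragments had between 3 and 9 reads over both libraries. Among them, Unigene11240_A0A had 8 reads in C1 and 1 in C0 (interval of the log2 ratio 0.52 to 5.77, adjusted p = 0.112, exact binomial test), and Unigene47726_A0A, with the α2-macroglobulin of *E. sinensis* as best hit, had 3 in C1 and 0 in C0.

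The tenth unigene of the group is an α2-macroglobulin receptor by its annotation, which in vertebrates is an endocytic receptor of the lipoprotein receptor family and not an inhibitor. Unigene45238_A0A (2326 bp, best hit from a sea urchin) had 354 reads (RPKM 40.6) in C1 and 621 reads (64.3) in C0. Its log2 ratio was -0.66 (interval -0.85 to -0.48) and passed the adjusted p alone (9.84e-11, exact binomial test). The 9 α2-macroglobulin unigenes without it had 288 reads in C1 and 204 in C0, a log2 ratio of their sums of 0.64 (interval 0.39 to 0.90). Of these reads, 88 in C1 and 30 in C0 were those of the DEU Unigene40213_A0A, so the sum leans on 1 unigene. With the receptor the sums were 642 in C1 and 825 in C0, and the ratio was -0.22.

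**Figure D3:**
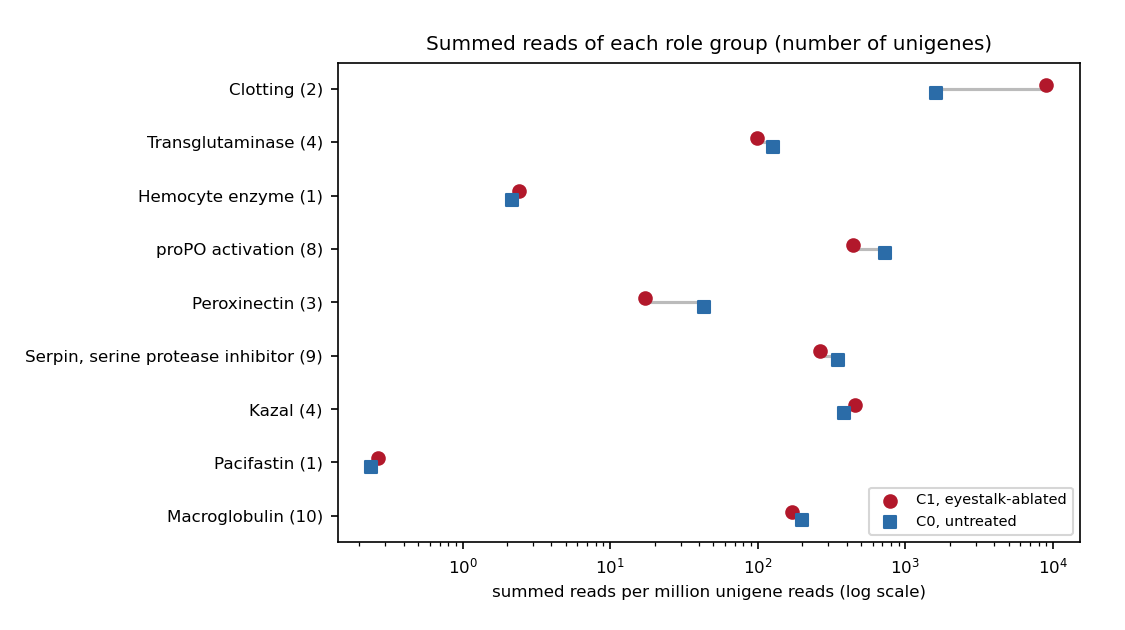
Summed reads of each role group, scaled to 1000000 reads per library, in C1 (circles) and C0 (squares) on a log axis, with the number of unigenes in brackets. Clotting stands at 9007 in C1 and 1624 in C0, while proPO activation (443 in C1 and 730 in C0) and peroxinectin (17.3 in C1 and 43.3 in C0) lie lower in C1.

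All members carry an annotation by the selection, while 13314 of the 47966 unigenes do. The best hit of the members was a crustacean protein for 33 of 42, and a protein of *E. sinensis* for 3. Their median length was 621 bp, against 316 bp for all unigenes. Their median RPKM was 12.9 in C1 and 14.7 in C0, against 6.33 in C1 and 5.85 in C0 for all unigenes. For the annotated unigenes the median RPKM was 5.80 in C1 and 6.63 in C0. The length and the share of crustacean best hits were not counted for the annotated unigenes. An RPKM above 100 was reached by 4 members in C1 and by 6 in C0. In C1 these were the clotting protein, both abundant Kazal unigenes and the prophenoloxidase-activating factor. The 6 of C0 also include the serine proteinase homologue Unigene40865_A0A and CL1248.Contig1_A0A. GO terms were deposited for 12 members. In all, 7 best hits recurred among 16 members, and reads of pieces or near-identical copies can be split or lost by unique mapping.

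Depth limits the low members. In all, 11 of the 42 had under 10 reads over both libraries, and 13 had fewer than 16, the fewest reads with which any unigene of the table was called. Depth also set the width of the intervals, which lay below 0 for 12 members, above 0 for 5, and across 0 for 25. Among members with at least 10 reads the shares were 12 of 31 (38.7%) below 0, against 11.6% of all such unigenes, and 3 of 31 (9.68%) above 0, against 20.2%. With at least 100 reads, 11 of 20 were below 0, against 23.5% of all, and 3 of 20 above 0, against 39.2%. For 13 members the whole interval lay between -1 and 1.

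**Figure D4:**
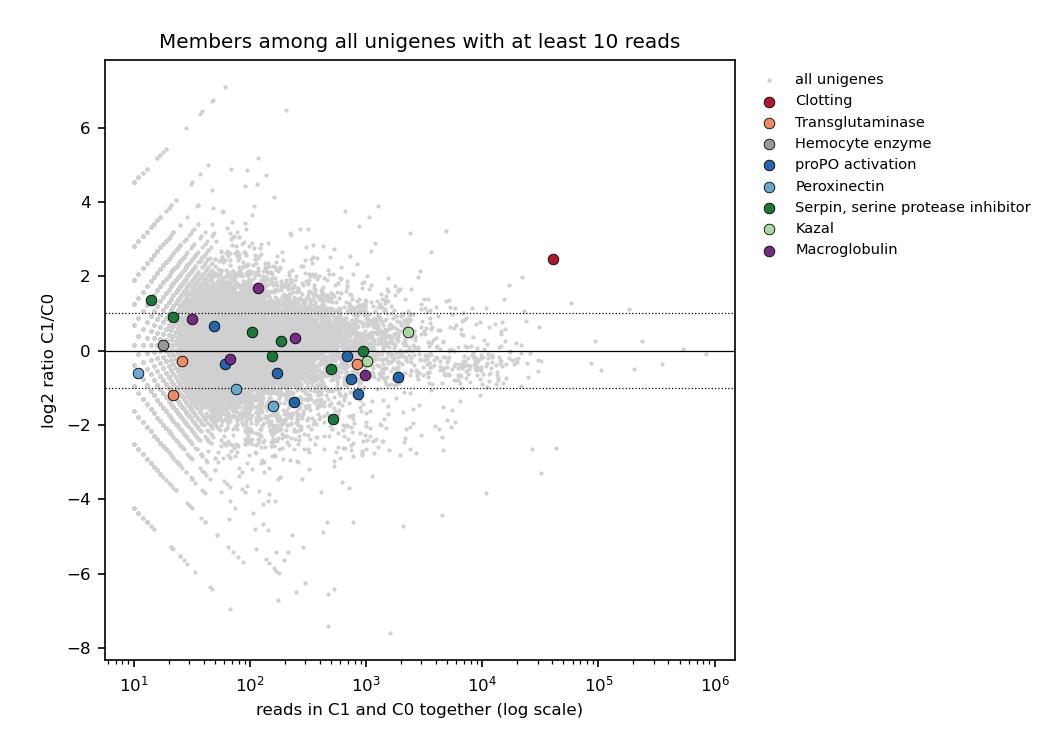
log2 ratio (C1/C0) against the reads in C1 and C0 together (log axis) for all unigenes with at least 10 reads (grey) and for the 31 members with as many (coloured by role). The clotting protein lies apart at 2.47, while 20 of the 31 lie below 0.

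Many of these genes are known from hemocytes, so other hemocyte effector and recognition genes outside the selection were counted. Of 23 such unigenes 16 had at least 10 reads, 8 higher and 8 lower in C1, and 0 were DEUs by the exact binomial test or by Fisher's exact test. An unadjusted p under 0.05 was reached by 9 of the 23, 6 higher and 3 lower in C1. The summed level was 4413 RPM in C1 and 3172 RPM in C0, most of it from 2 anti-lipopolysaccharide factors. Unigene20839_A0A had 8025 reads in C1 and 6454 in C0, a log2 ratio of 0.46, and Unigene19721_A0A had 6622 in C1 and 4711 in C0, a log2 ratio of 0.64. Both passed the adjusted p (1.61e-79 and 2.21e-118, exact binomial test) without reaching the ratio threshold. Astakine, a cytokine of hemocyte formation in crayfish, had 127 reads in C1 and 204 in C0 (log2 ratio -0.53, adjusted p = 0.0112, exact binomial test). Crustin-2 had 167 in C1 and 296 in C0, lysozyme (Unigene24945_A0A) had 208 in C1 and 374 in C0, and crustin-1 had 537 in C1 and 513 in C0. In the exact binomial test crustin-2 (adjusted p = 2.23e-05) and lysozyme (4.36e-07) passed the adjusted p alone, while crustin-1 (0.116) did not. C-type lectin 4 (Unigene46319_A0A) had 443 in C1 and 245 in C0, with an adjusted p of 3.68e-17 (exact binomial test) and a log2 ratio that missed the threshold of 1 only by the 0.5 read added. Another C-type lectin, Unigene7797_A0A, had 184 in C1 and 112 in C0, a log2 ratio of 0.86 (adjusted p = 1.18e-05, exact binomial test). No unigene was annotated as penaeidin or peptidoglycan recognition protein.

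The enzymes around melanin were few. The words for melanin and catechol enzymes found 14 unigenes, with 1210 RPM in C1 and 1040 in C0 and 0 DEUs by either exact test (5 with an unadjusted p under 0.05), but most reads fell on a yellow head virus receptor that matched by name. Laccase, of which one form tans the cuticle of insects, had 7 unigenes with 850 reads in C1 and 568 in C0, but 78 in C1 and 103 in C0 without CL1518.Contig1_A0A (772 in C1 and 465 in C0). Hemocyanin, which can gain phenoloxidase activity, had 6 unigenes with 69 reads in C1 and 40 in C0. For tyrosine hydroxylase and dopa decarboxylase 0 unigenes were found by name.

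Markers of other tissues were counted in the same way. Of 32 muscle unigenes 27 had at least 10 reads, with 9 higher and 18 lower in C1, 1 DEU higher and 6 lower. Their sum was 3795 RPM in C1 and 3885 in C0. Without arginine kinase, which had 8157 reads in C1 and 6274 in C0, it was 1621 RPM in C1 and 2374 in C0, and a non-muscle myosin heavy chain (1423 reads in C1 and 1207 in C0) also matched by name. All 7 troponins with at least 10 reads had lower values in C1, 3 of them DEUs. Epidermis and cuticle unigenes summed to 1095 RPM in C1 and 545 in C0, with 1 DEU in each direction. Without the arthrodial cuticle protein Unigene20409_A0A (3888 reads in C1 and 1939 in C0) the sum was 58.7 RPM in C1 and 78.0 in C0. Hepatopancreas words gave 29 unigenes with 423 RPM in C1 and 383 in C0 and 0 DEUs by either exact test (2 with an unadjusted p under 0.05). They include a tubulin polyglutamylase, inter-α-trypsin inhibitors and a carboxypeptidase inhibitor, among others that matched by name, and 0 vitellogenins. Without Unigene8469_A0A (carboxypeptidase N subunit 2, 754 reads in C1 and 665 in C0) the sum was 222.1 RPM in C1 and 222.5 in C0. Unigenes named for ecdysteroid synthesis, which mark the Y-organ, had 69258 RPM in C1 and 66862 in C0, nearly all on Unigene19254_A0A. Without it the sum was 176 RPM in C1 and 78.3 in C0, mostly from Unigene1867_A0A (dib, an ecdysteroid 22-hydroxylase), a DEU with 654 reads in C1 and 323 in C0. The part of muscle, cuticle and hemocyte RNA in the values of the members was not tested.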

How the data were processed

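Y-organ RNA of 2 samples, C1 and C0, was sequenced as single-end reads, 1 library each. The authors filtered the reads and mapped them to previously assembled unigenes using SOAPaligner/soap2. The version of the aligner is not given in the sources used here. They deposited the count of uniquely mapped reads per unigene without normalization, the RPKM calculated from it, and the coverage as percent of the unigene length. The deposited columns of log2 ratio, p-value and false discovery rate hold the authors' own comparison and were not used. Columns without a sample numbered 0.

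Members were found by words in the text of the best hit before the species name. The members and lists were chosen with earlier results of these data known. Library sizes were the summed unigene reads, 3750847 in C1 and 4152469 in C0. Each of the 47966 unigenes was given a two-sided exact binomial p with Benjamini-Hochberg adjustment, and log2 ratios were formed with 0.5 read added on both sides. The thresholds (adjusted p 0.001, log2 ratio 1) are those of the paper. The text names every DEU among the members and the 5 members with the most reads in each role group, 30 in all, while the other names were chosen after their values were seen. Medians use members with at least 10 reads. Raising counts under 3 to 3 reads could not move these medians, because no member with at least 10 reads had so low a count. The medians of the members, the cascade and the inhibitors thus stayed at -0.28, -0.60 and 0.26. The alternatives were other library scalings, assumed coefficients of variation, read minimums, 1 added read, Fisher's exact test and other sets of members. Of the steps, only the binomial call was tested on simulated counts. These held no variation between crabs, and changes were placed only in unigenes with at least 100 reads. Tools were Python 3.11.15, numpy 2.4.6, scipy 1.17.1, pandas 2.3.3, matplotlib 3.10.9, R 4.3.3 and edgeR 4.0.16. Of the 42 identifiers, 0 matched the RefSeq gene table that was at hand, and no coordinates are given.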

Additional observations from a re-analysis of the deposited data

How the results depend on the processing

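The same 6 members were called with TMM factors, the median ratio (which moved all log2 ratios by -0.20), a minimum of 10 reads, 1 added read, Fisher's exact test, and the exact test of edgeR when a biological coefficient of variation of 0.1 was assumed. All 6 have a crustacean best hit. Without the clotting protein 5 were called. An assumed coefficient of 0.2 left 1 member, the clotting protein, and one of 0.4 left 0. Without any assumed variation between crabs, Fisher's exact test called 6 of the 42. An unadjusted binomial p under 0.05 was reached by 17 of the 42, 5 higher and 12 lower in C1. The share of all unigenes at that p was not counted, and the members had more reads than the average unigene, so this count describes the list only. Over the whole table the assumed coefficients left 1237 DEUs at 0.1, 295 at 0.2 and 8 at 0.4, in place of 1931. The true spread between crabs is unknown with 1 library per group. The median log2 ratio of the members, -0.28, was -0.45 with TMM factors, -0.48 with the median ratio, -0.27 with 1 added read, -0.36 with a minimum of 50 reads, -0.22 for crustacean best hits and, in a choice made after seeing the data, -0.26 without the macroglobulin receptor. The log2 ratio of the summed reads of the members was 1.60, and 1.43 with TMM factors, but -0.33 without the clotting protein, 2 alternatives also chosen after seeing the data. With TMM factors and the median ratio the sign turned for 3 members, each with equal reads in both libraries. Unigene31238_A0A was at -0.0224 with TMM factors and -0.0518 with the median ratio, and Unigene19150_A0A and Unigene17404_A0A likewise at -0.0224 and -0.0518. No paired analysis was possible because each group has 1 library.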
